A study of Homo sapiens with 19 samples.

Results

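Transthyretin, alpha-fetoprotein and a group of other plasma proteins of the hepatic type were followed in human embryonic stem cells (hESCs) over the first 3 days of their induction to brown adipocytes (BAs). The 10 genes were TTR, AFP, ALB, APOA1, APOA2, APOB, APOE, SERPINA1, AGT and RBP4. They were chosen by name, with their levels on these same arrays known, so their own time courses are given as a description and without a test. Probes were assigned through the RefSeq accession of each spot. Of the 10 genes, 9 had a matched probe, with 10 probes in all, out of 20503 gene symbols with a matched probe in the series. AGT, the precursor of the angiotensins, had no match through the gene table used and is therefore left out.

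KhES-3, an hESC line, was the source of every sample. The cells were kept in non-adherent dishes in serum-free medium with albumin, insulin, transferrin, selenium, synthetic lipids and a cocktail of IGF-II, BMP4, VEGFA, KITLG, FLT3LG and IL-6, and all samples received it. RNA was taken at 3 and 4 h, every 2 h from 6 to 16 h, every 4 h from 20 to 36 h and every 6 h from 42 to 72 h of BA induction, and each of the 19 time points was put on 1 Agilent array. The samples include none before induction, none without cytokines and no replicate. The labels describe maintenance on irradiated mouse embryonic fibroblasts, whereas the methods of the study describe a feeder-free system.

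In the body these proteins are made mostly by hepatocytes and, before the liver forms, by the yolk sac endoderm. TTR carries thyroid hormone and, bound to RBP4, retinol. AFP is the main plasma protein of the fetus and a relative of albumin (ALB), its neighbour in the genome. APOA1 and APOA2 form the protein shell of high density lipoprotein, APOB that of low density lipoprotein, and APOE guides lipoprotein remnants to their receptors. SERPINA1 inhibits neutrophil elastase. Transcription of many of them in liver is known to depend on HNF1, HNF4, forkhead (FOXA) and C/EBP factors.

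Promoter sequences are shown for 4 of the genes, AFP, APOA2, SERPINA1 and ALB. On the arrays AFP fell and APOA2 rose, the early and late values of SERPINA1 overlapped, and ALB was at the detection limit. The sequences are the 250 bases before the annotated start in RefSeq, build GRCh38.p14, written 5′ to 3′ in the direction of the gene. Capitals mark letters that match a searched motif on either strand.
AFP, chr4:73435971-73436220, plus strand: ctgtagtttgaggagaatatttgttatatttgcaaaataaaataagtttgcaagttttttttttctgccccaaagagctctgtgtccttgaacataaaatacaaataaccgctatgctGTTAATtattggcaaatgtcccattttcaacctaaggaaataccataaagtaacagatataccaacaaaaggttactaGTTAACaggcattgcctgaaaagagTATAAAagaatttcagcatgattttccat
ALB, chr4:73404037-73404286, plus strand: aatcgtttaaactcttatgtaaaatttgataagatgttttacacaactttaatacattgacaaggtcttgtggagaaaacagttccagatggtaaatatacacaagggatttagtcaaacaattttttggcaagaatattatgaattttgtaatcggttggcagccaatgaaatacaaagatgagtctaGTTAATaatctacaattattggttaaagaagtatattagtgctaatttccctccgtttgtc
APOA2, chr1:161223629-161223878, minus strand: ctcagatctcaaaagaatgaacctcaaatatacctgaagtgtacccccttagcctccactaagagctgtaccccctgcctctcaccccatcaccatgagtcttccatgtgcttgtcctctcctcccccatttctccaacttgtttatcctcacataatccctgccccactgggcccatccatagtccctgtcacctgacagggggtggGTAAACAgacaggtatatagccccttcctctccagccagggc
SERPINA1, chr14:94388603-94388852, minus strand: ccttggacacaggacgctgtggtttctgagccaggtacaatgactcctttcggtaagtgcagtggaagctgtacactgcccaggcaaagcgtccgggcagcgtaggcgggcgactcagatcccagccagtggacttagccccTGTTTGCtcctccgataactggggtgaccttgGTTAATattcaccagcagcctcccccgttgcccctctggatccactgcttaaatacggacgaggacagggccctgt

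The motifs searched on both strands were the HNF1 half-site GTTAAT and a second form of it, GTTAAC, which share 5 letters, the forkhead motif TGTTTAC and a second form of it, TGTTTGC, the HNF4 letters CAAAGTCC, the TATA box letters TATAAA and the SP1 letters GGGCGG. AFP held both HNF1 half-sites, 132 to 127 and 54 to 49 bases before the start, and a TATA box 29 to 24 bases before it. ALB held GTTAAT, 61 to 56 bases before the start. APOA2 held TGTTTAC on the minus strand of the gene, printed as GTAAACA, 42 to 36 bases before the start. The SERPINA1 window shown, 1 of the 2 annotated windows of that gene, held TGTTTGC and GTTAAT. Of 35116 promoter windows of the same length, 6.23% held the first HNF1 half-site and 2.31% the second, 2.98% held the first forkhead motif and 3.23% the second, 1.02% held the HNF4 letters, 10.7% the TATA box and 42.6% the SP1 letters. The letters CAAAGTCC were in none of the windows listed for these genes. No window was available for TTR, APOA1 and APOB, so their promoters were not searched. These matches describe letters and not binding.

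Signals are the scanner's background-subtracted intensities, scaled so that the 75th percentile, measured at 655 to 1003 depending on the array, takes a common value of 871. A spot was called well above background by the scanner's own flag, and 49.6% (14 h) to 64.7% (54 h) of probes passed on an array. The levels of different probes cannot be compared with each other, so each gene is compared only with itself over time. The arrays lay on 3 slides, with 6 arrays from 3 to 12 h, 8 from 14 to 42 h and 5 from 48 to 72 h. Slides 1 and 2 were scanned on 1 day and slide 3 on another, so that slide, scan day and time overlap. The arrays at 3 to 6 h and at 60 to 72 h lay on different slides. A difference between them cannot be told apart from one of slide or scan day. Each of the 9 markers of undifferentiated hESCs with a probe passed this flag on every array. The sum of the 9 signals was 708700 to 712800 at 3 to 6 h and 541700 to 556600 at 60 to 72 h. POU5F1 and DNMT3B made the largest parts of this sum, with 346900 and 181800 at 3 h. Between these times 7 of the 9 markers were lower late and 2 higher, NANOG by 0.29 and UTF1 by 0.32 on the log2 scale. Among the 7, SOX2 (-0.02) and DPPA4 (-0.07) changed little. Of 12 hepatocyte markers, HNF4A and TDO2 were among those well above background on no array. In bulk RNA, a change in the number of cells of a type and a change in the RNA of each cell cannot be told apart.

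TTR had the widest range of the 9 genes, and its signal was high at 20 h and from 60 h onwards. It was not well above background at 3 h, where its signal was 20.7, and it measured 40.8 at 4 h and 64.0 at 6 h. On the first slide it stayed between 20.7 and 88.3 (median 52.4, n = 6). On the second it lay between 50.0 and 916 (median 112, n = 8), and on the third between 170 and 1357 (median 492, n = 5). The arrays at 60, 66 and 72 h gave 492, 1357 and 1120, all above every early value. The mean log2 signal of these 3 arrays exceeded that of 3, 4 and 6 h by 4.59, a ratio of 24.0 that includes the 3 h value below the limit. Leaving out single arrays of the 2 windows moved this difference between 4.15 and 5.03.

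The 20 h array stood apart for TTR. The signal was 199 at 16 h and 916 at 20 h, and by 24 h it was down to 50.0. The 20 h value was therefore 3.20 higher on the log2 scale than the mean of its neighbours, a ratio of 9.18, and TTR was ranked 4 of 16100 genes by this difference. The probe has a single spot on the array, so the value rests on 1 spot of 1 sample. At 28 h the signal was 189, again above both neighbours.

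APOA1, APOA2 and APOB followed similar courses, with their 3 highest signals at 60, 66 and 72 h. APOA1 was read by a pair of probes. The brighter one gave 316, 481 and 414 at 3, 4 and 6 h, reached 923 at 42 h, and gave 1738, 4506 and 1710 at 60, 66 and 72 h. Its difference between the windows was 2.58 on the log2 scale, a ratio of 5.97. The other probe, printed in 10 copies on each array, gave 133, 232 and 174 early and 993, 2402 and 915 late, a ratio of 7.42. Both APOA1 probes therefore had their highest signal at 66 h and late values that did not overlap the early ones.

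APOA2 was well above background on all 19 arrays, and its 322 at 20 h was above its 294 at 48 h. It gave 127, 173 and 168 at 3, 4 and 6 h and 788, 1411 and 669 at 60, 66 and 72 h, which is 2.55 on the log2 scale and a ratio of 5.86. APOB was dimmer and was below the detection flag at 14, 16 and 32 h. Its signals were 29.2, 32.0 and 38.1 early and 73.3, 159 and 86.8 late, a log2 difference of 1.61 and a ratio of 3.05, each from 10 spots per array. In both genes every late value was above every early value. The share of all genes whose 2 windows are separate in this way is not given. Nothing is therefore read from such a separation, in these genes or in the others. Leaving out single arrays moved the difference between 2.12 and 2.82 for APOA1, 2.23 and 2.77 for APOA2 and 1.28 and 1.84 for APOB, the lowest in each case without 66 h.

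Over the 19 arrays the Pearson correlation of log2 signal was 0.96 between APOA1 and APOA2, 0.96 between APOA1 and APOB and 0.97 between APOA2 and APOB. With TTR it was 0.83 for APOA1, 0.84 for APOA2 and 0.86 for APOB. After the mean of each slide was removed, the 3 apolipoproteins still correlated at 0.88 to 0.90 with each other and at 0.63 to 0.69 with TTR. The arrays share the passage of time and the slide, so these coefficients (n = 19 time points) describe the curves and carry no p.

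AFP fell between the early and the late arrays, whereas TTR and these apolipoproteins climbed. It gave 1484, 1307 and 1873 at 3, 4 and 6 h, and on the first slide it stayed between 1307 and 1873 (median 1543, n = 6). It peaked with 2235 at 20 h, and was down to 841 at 24 h and 500 at 42 h. At 60, 66 and 72 h it was 164, 406 and 144. From the early to the late mean it fell by 2.86 on the log2 scale, a ratio of 7.24 from early to late, and the 2 windows did not overlap. Within the first slide the AFP slope was -0.0043 log2 units per hour, within the second -0.077 and within the third -0.040, so the decline lay after 20 h. Without the 66 h array the difference was -3.32. Over the 19 arrays AFP correlated at -0.545 with TTR, -0.73 with APOA1, -0.64 with APOA2 and -0.615 with APOB. After the slide means were removed these were 0.26, 0.06, 0.17 and 0.35, so the negative correlation was not seen within slides. On the second slide, where AFP fell most steeply, TTR, APOA1, APOA2 and APOB had slopes of -0.026, 0.015, -0.0056 and -0.0071.

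RBP4, the plasma carrier of retinol, also declined, and later. It lay between 192 and 238 on the first slide, reached 267 at 20 h and 240 at 32 h, and then went down at every step from 199 at 36 h to 111 at 72 h. From the early to the late mean it dropped by 0.90 on the log2 scale, a ratio of 1.86 from early to late, with no overlap between 111 to 120 late and 192 to 238 early. RBP4 and AFP correlated at 0.87 over the 19 arrays and at 0.51 after the slide means were removed.

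The early and late values of SERPINA1 overlapped. Its 19 values ran from 30.4 (6 h) to 190 (20 h) around a median of 81.2. The early values were 73.5, 67.6 and 30.4 and the late values 72.0, 87.7 and 89.7. The difference of 0.64 on the log2 scale was -0.01 when arrays were scaled to the spike-in RNA, external control transcripts, a scaling that shifts all genes alike. Relative to the median of all tested genes SERPINA1 was 0.69 higher under either scaling, and 0.14 higher with quantile normalization.

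APOE had a very bright spot throughout, and its range was the narrowest, from 233900 at 36 h to 346800 at 66 h. The early values were 265700, 278000 and 264200 and the late values 295300, 346800 and 336100. The difference of 0.27 on the log2 scale depended on the scaling, and was -0.10 with the median of each array and -0.37 with the spike-in RNA. Relative to the median of all tested genes, which was itself -0.05, -0.42 and -0.70 under these 3 scalings, APOE was 0.32 higher in each. These scalings shift all genes of an array alike, so this value is the same in each by arithmetic. With quantile normalization APOE was 0.21 higher than that median.

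ALB was at the detection limit. It was well above background on 5 arrays (8, 36, 42, 48 and 54 h), where the signal was between 36.1 and 45.9. On the other 14 arrays, among them all early and all late ones, it was not well above background, and no ratio is given. TTR and APOA1 were measured at 60 to 72 h in the same RNA in which the ALB spot was at 13.3 to 25.6.

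A line of log2 signal on hours, fitted with limma across 32113 probes, called 4 of the 9 measured genes rising (TTR, APOA1, APOA2 and APOB) and 2 falling (AFP and RBP4). Over all 16694 genes tested, 24.6% were called rising and 29.8% falling. The slope was 0.059 ± 0.011 (SE) log2 units per hour for TTR and -0.051 ± 0.0046 for AFP. With the slide as a block, which leaves only the trend within slides, AFP alone was called, and 0 were called rising, where 4.12% of all genes were called rising and 5.97% falling. The choice of these genes used the same values, so nothing is read from their counts.

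A pair of arrays moved most of these genes at once. This was noticed after the values were seen. At 20 h, 8 of the 9 genes were well above background, all 8 were above the mean of 16 and 24 h, and 7 were past the 95th percentile of that difference over all tested genes (0.29 on the log2 scale), which by definition 5.0% of genes exceed. The differences were 3.20 for TTR, 1.03 for SERPINA1, 0.94 for AFP, 0.80 for APOA2, 0.45 for APOA1, 0.43 for RBP4 and 0.38 for APOB, whereas APOE had 0.02. Thus genes that climbed and genes that fell over 72 h were both high at 20 h. APOB was not well above background at 16 h. Of the 6 genes that were well above background on all 19 arrays, 5 were past the percentile, as were 1.95% of all genes so detected.

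At 66 h, compared with the mean of 60 and 72 h, 5 of the 8 genes above background were past the 95th percentile (0.56), again exceeded by 5.0% of all genes. AFP was higher by 1.40 on the log2 scale, APOA1 by 1.39, APOB by 1.00, APOA2 by 0.96 and TTR by 0.87. APOE had 0.14, SERPINA1 0.13 and RBP4 -0.01. Of the 6 genes well above background on all 19 arrays, 3 were past the percentile, as were 2.24% of all genes so detected.

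Marker lists of other cells were read on the same arrays. The summed signal of 17 visceral endoderm markers was 8166, 10670 and 8243 at 60, 66 and 72 h, and HNF4A and TTPA among them were well above background on no array. Of the 12 markers measured on these 3 arrays, 10 were higher at 66 h than the mean of the neighbours and 2 lower. Over the 3 early arrays this sum ranged from 7336 to 7883. Of the 12 markers measured in both windows, 4 were higher late and 8 lower. AMN, a large part of the sum, went from 1327 at 3 h to 3103, 4385 and 3463 at 60, 66 and 72 h.

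The sum of 8 definitive endoderm markers, 4 of them also in the visceral list, was 2857, 4305 and 2487 at 60, 66 and 72 h and 3706 to 4760 at 3 to 6 h, and all 7 measured on the late arrays were higher at 66 h. The sum of 11 trophoblast and amnion markers was 10280, 14460 and 13810, most of it from KRT7 (8949, 12160 and 12590), with 5 of 6 measured markers higher at 66 h. The mesoderm, hepatocyte and fibroblast sums had no peak on that array. The mesoderm sum was 8648, 7517 and 6779, with 5 of 7 measured markers higher and KDR and TBX6 lower, the hepatocyte sum was 3827, 3809 and 3869, and the fibroblast sum 31970, 39250 and 49200. The sums of the endothelium and blood list (1126, 1293 and 1082), of the neuroectoderm list (513, 636 and 509) and of the hESC markers (555500, 556600 and 541700) had their highest late value at 66 h. Of the measured markers of these 3 lists, 3 of 3, 1 of 3 and 5 of 9 were higher at 66 h. So were 2 of 3 hepatocyte and 2 of 4 fibroblast markers. Over all tested genes the median of this difference was 0.013 on the log2 scale. At 20 h the visceral endoderm sum was 8566, between 8952 at 16 h and 8183 at 24 h. The part of these markers in the values of the plasma protein genes was not tested.

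The genes whose curves were most like TTR, among 16039 searched, were FAM186B (r = 0.89), OPN4 (0.88), WASH5P (0.87), PLA2G2A (0.86) and VTN (0.85), over 19 arrays. All 5 were higher at 66 h than at 60 h. VTN, vitronectin, is itself a liver plasma protein. The genes most like AFP included TTF2 (r = 0.98), ZWINT, DAB2 and METTL25 (each 0.96). Their log2 differences between the windows were -0.82, -0.996, -1.50 and -1.19, smaller in size than that of AFP.

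Genes of 4 lists that did not include the members were then tested. Of 85 other liver plasma protein genes, 84 had a probe, 20 were well above background on no array, and 40 passed the filter of 5 arrays. Of these 40, 15 rose (37.5%), 5 fell (12.5%) and 20 were not called, against 24.6% and 29.8% of all tested genes. FGG, A2M and IGFALS, among those that rose, were well above background on no early array and passed the filter through later ones. With only probes well above background on all 19 arrays, 7 of 21 plasma genes rose and 4 fell. On the spike-in scale, which shifts all genes alike, 5 of the 40 rose and 9 fell. The shares of all genes under that filter and on that scale are not given. The median difference between the windows of the 40 plasma genes was 0.36 on the log2 scale, beside -0.05 for all tested genes. Neither the shares called nor these medians are matched for detection. Of the 40 genes, 21 were well above background on all arrays, as were 13969 of all 16694 tested genes. The plasma genes well above background on no array also gave higher late values, by 0.29 (SERPIND1) to 1.76 (FGA), except FETUB (-0.23). The part of this shift in the median of 0.36 was not tested. The same limit applies to the shares and medians of the lists that follow. The clotting factors F10 and F2 rose, from 51.3 to 207 for F10 (adjusted p = 3.0e-08) and from 29.3 to 88.0 for F2 (adjusted p = 1.4e-05). Complement C3 rose from 278 to 797 (adjusted p = 6.6e-07) and PROS1, protein S, from 121 to 316 (adjusted p = 1.1e-08). C4BPA, which binds complement C4b, rose from 25.9 to 88.4 (adjusted p = 0.0079), a call that was lost without the 72 h array. With the slide as a block C3 (adjusted p = 0.12) and C4BPA (0.80) were not called.

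Haptoglobin (HP) fell from 312 to 194 and AHSG, fetuin-A, from 109 to 61.1. APOM fell from 1525 to 1042, PROC, protein C, from 1661 to 942, and SERPINF1 from 1333 to 1058, with adjusted p between 2.6e-04 and 0.0025 for these 5 genes. With the slide as a block, 5 of the 40 rose and 0 fell, and F10, F2 and PROS1 were among those that rose. The genes that were well above background on no array included the fibrinogen chain FGA, antithrombin SERPINC1, plasminogen PLG, the clotting factor F9 and AFM, a further relative of albumin. Among the neighbours of APOA1 in the genome, APOC3 and APOA5 were each well above background on 1 array.

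Of 51 hepatocyte enzyme and transporter genes, 49 had a probe, 9 were well above background on no array and 28 were tested. Of these, 10 rose (35.7%) and 4 fell (14.3%), beside 24.6% and 29.8% of all tested genes. The median difference was 0.35. HGD, among those that rose, was well above background on no early array and passed the filter through later ones. The tyrosine catabolism enzyme HPD rose from 38.7 to 95.1 (adjusted p = 2.3e-06). CYP27A1, a sterol hydroxylase, rose from 1526 to 3366 (adjusted p = 8.9e-09) and was the 1 gene of this list called with the slide as a block. CYP3A7, the fetal form of CYP3A, rose from 39.4 to 86.1 (adjusted p = 0.022), a call lost when the array median, the spike-in RNA or quantile normalization set the scale. CYP2D6 rose from 110 to 191 (adjusted p = 0.0014). KHK, BHMT, FBP1 and ASS1 fell, by 0.99, 0.72, 0.78 and 0.41 on the log2 scale, and the call of KHK was lost on leaving out any of 6 arrays (3, 4, 48, 54, 60 or 72 h). CYP7A1, G6PC1, PCK1, SLC2A2, TDO2, ADH4 and SULT2A1 were among those well above background on no array.

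Of 41 hepatic and endodermal transcription factor genes, all had a probe and 34 were tested. Among them 10 rose (29.4%) and 6 fell (17.6%), beside 24.6% and 29.8% of all tested genes, with a median difference of 0.04. HNF4A had 1 probe, whose highest signal was 27.1, and HNF4G, FOXA1, NR1H4 and NR0B2 were likewise well above background on no array. FOXA2 went from 297 to 204 and was not called (adjusted p = 0.055). FOXA3 fell from 1521 to 913 (adjusted p = 0.0063). CREB3L3, a liver factor that controls apolipoprotein genes, rose from 117 to 469 (adjusted p = 1.1e-08) and was the 1 gene of the list called with the slide as a block. ONECUT1 rose from 155 to 381, DBP from 590 to 1547 and MLXIPL, the carbohydrate response factor, from 476 to 1023 (adjusted p = 6.5e-04, 3.4e-06 and 2.5e-06).

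Among the factors known to repress AFP are ZBTB20, ZFHX3 and ZHX2. ZBTB20 was well above background on no early array and had a late mean of 47.4, at least 1.16 higher on the log2 scale. It passed the filter through later arrays and was called rising, a fit that rests in part on values below detection. That call was lost on the spike-in scale and with the deposited table. ZFHX3 fell from 116 to 64.7 (adjusted p = 0.012). ZHX2, named here for its role although it lay outside the rule for named genes, fell from 390 to 272 (adjusted p = 0.020, a call lost without the 72 h array). NR5A2, SREBF1 and ATF5 also fell, from 307 to 145, from 15670 to 9278 and from 686 to 383 (adjusted p = 0.011, 8.4e-05 and 0.016). The call of ATF5 was lost without the 66 or the 72 h array. GATA4, GATA6 and SOX17 were not called, and at 66 h they were 1.104, 1.32 and 0.98 above the mean of their neighbours.

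Of 53 receptor, processing and partner genes, all had a probe and 42 were tested. Among them 14 rose (33.3%) and 9 fell (21.4%), beside 24.6% and 29.8% of all tested genes. The median difference was 0.13, and 4 rose and 3 fell with the slide as a block. MTTP, which loads lipid onto APOB, rose from 29.9 to 205 (adjusted p = 9.2e-06), and TM6SF2, which acts in the same step, from 77.2 to 156 (adjusted p = 1.6e-06). The lipid exporters that act with APOA1 rose as well, ABCG1 from 89.7 to 157 (adjusted p = 0.0016) and ABCA1, named for its role, from 2165 to 3936 (adjusted p = 5.7e-04). Neither rise was called when the array median or the spike-in RNA set the scale. MTTP, ABCG1 and ABCA1 were among the genes called with the slide as a block, and TM6SF2 was not (adjusted p = 0.19).

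In the retinol branch, STRA6, the receptor of RBP4, named for its role, rose from 1487 to 2390 (adjusted p = 1.5e-05, not called on the spike-in scale). LRAT, which esterifies retinol, fell from 1406 to 427 (adjusted p = 1.6e-05), and RDH10, which oxidizes it, from 299 to 180 (adjusted p = 0.039). The call of RDH10 was lost on leaving out 3, 4, 66 or 72 h, and its slope turned positive over 3 to 54 h. AMN, a part of the endoderm uptake receptor, rose from 1348 to 3612 (adjusted p = 1.2e-05), and the adaptor DAB2 fell from 498 to 176 (adjusted p = 5.1e-08). The protease PRTN3, inhibited by SERPINA1, rose from 29.1 to 71.4 (adjusted p = 4.5e-04). With the slide as a block DAB2 was called (adjusted p = 0.016), whereas STRA6, LRAT, RDH10, AMN and PRTN3 were not (adjusted p = 0.18, 0.12, 0.64, 0.53 and 0.11). AGTR1, AGTR2, MAS1 and ENPEP of the angiotensin branch, and RBP2, were well above background on no array.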

How the data were processed

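The members and the gene lists were chosen with earlier results of these data known. The authors deposited the Agilent Feature Extraction (10.10.1.1, per the labels) output of 19 one-colour arrays, with a background-subtracted intensity per spot, and a table of the same intensities times 1 factor per array (0.9051 to 1.3777), which was used as an alternative. Outlier spots (0.63%) were left out, spots of a probe were averaged, and log2 intensity was centred on the 75th percentile of each array. Of 50683 probes, 28174 were matched to symbols through RefSeq accessions (GRCh38.p14). A gene was its probe with the highest mean. The 32113 probes that passed the scanner's background flag on 5 arrays or more were taken into a linear fit (limma 3.58.1, R 4.3.3, slope on hours, Benjamini-Hochberg, adjusted p under 0.05), after a test on simulated data. Python 3.11.15 made the tables. Early values are the mean log2 signal of 3, 4 and 6 h and late values that of 60, 66 and 72 h, and where no array of a window was above background the difference is a bound against the lowest detected signal. Per list, up to 5 called genes per direction with the largest slope and at least 10 arrays above background were named, genes detected on no array, and the 5 genes most correlated with TTR and AFP. Some genes that this rule names are not reported here. With 1 array per time, p-values measure the scatter around the line, and the number of arrays limits precision. The alternatives were other scalings, normexp (offset 50) with quantile normalization, the deposited table, other filters, the slide as a block, log2 hours, 3 to 54 h, all probes of a gene, single arrays left out and, added after the data were seen, the arrays at 20 and 66 h left out together.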

Additional observations from a re-analysis of the deposited data

How the results depend on the processing

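No paired analysis was possible because there is 1 array per time point. Leaving out single arrays kept every count of called list genes within 1.5 times (plasma 12 to 15 rising and 5 to 6 falling, hepatocyte 9 to 12 and 3 to 5, transcription factors 10 to 12 and 5 to 7, partners 14 to 15 and 7 to 10), and so did leaving out 20 and 66 h together (13 and 6, 10 and 5, 11 and 6, 14 and 9). The slide as a block gave 5 and 0 for the plasma genes, 1 and 0 for the hepatocyte genes, 1 and 0 for the transcription factors and 4 and 3 for the partners. The array median as the scaling gave 12 falling plasma genes, 6 rising hepatocyte genes, 6 rising and 11 falling transcription factors and 7 rising and 14 falling partners. The spike-in RNA gave 5 rising and 9 falling plasma genes, 4 rising hepatocyte genes, 4 rising and 12 falling transcription factors and 3 rising partners, and these scalings shift the median of all genes (from -0.05 to -0.42 and -0.70). With quantile normalization 5 hepatocyte genes rose, and 6 rose with the deposited table. With probes above background on all 19 arrays, where fewer genes are tested, 7 plasma genes, 5 hepatocyte genes and 6 transcription factors rose and 2 hepatocyte genes fell. With log2 hours 10 transcription factors fell. Among named genes, the calls of C4BPA, VTN, CYP3A7, CYP2D6, ZBTB20, MLXIPL, TM6SF2, ABCG1, STRA6 and ABCA1 were lost on the spike-in scale, and those of C4BPA, APOM, KHK, FBP1, ATF5, FOXA3, RDH10, ABCG1 and ABCA1 over 3 to 54 h. The deposited table lost the calls of C4BPA, KHK and ZBTB20, log2 hours those of APOM, ATF5, RDH10 and ABCG1, the array median those of CYP3A7, ABCG1 and ABCA1, quantile normalization those of CYP3A7 and ASS1, and leaving out 20 and 66 h those of ATF5 and RDH10. The slope of ATF5 and RDH10 turned positive over 3 to 54 h, and that of BHMT and ZHX2 with the slide as a block. Other causes were not tested. Of the members' values, the difference of APOE was -0.10 on the scale of the array median, -0.37 on that of the spike-in RNA, that of SERPINA1 -0.0086 on the latter, the slope of APOE was -0.0025 per hour over 3 to 54 h, and the slope of SERPINA1 was -0.010 with the slide as a block. TTR, APOA1, APOA2 and APOB kept a positive and AFP and RBP4 a negative difference under every alternative run. Normexp with quantile normalization gave 3.10 for TTR and 0.55 for APOB in place of 4.59 and 1.61.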

Other observations

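Some other liver plasma protein genes were also high on the 20 h array, as was seen after the values were known, and nearly all of them were detected on only some arrays. Of the plasma genes detected on 5 or more of the arrays besides 20 h, 10 of 39 (25.6%) were past the 95th percentile of all genes for the difference between 20 h and the mean of 16 and 24 h, and so were 7 of 28 hepatocyte genes (25%), 7 of 34 transcription factors (20.6%) and 3 of 42 partner genes (7.14%), beside 4.95% of all genes. Of the 21 plasma genes well above background on all 19 arrays, 1 was past it, ANGPTL4 (4.76%, beside 1.95% of all genes so detected). Of the 26 well above background at 16, 20 and 24 h, 3 were, AHSG, AZGP1 and ANGPTL4 (11.5%, beside 2.42%). AZGP1 gave 70.8, 349 and 93.3 at 16, 20 and 24 h. PON1, the paraoxonase of high density lipoprotein, had a signal of 291 at 20 h and was not well above background at 16 h (21.7) or 24 h (28.1). The kininogen KNG1, with 91.6 at 20 h, and APOA4, a neighbour of APOA1, with 113, were likewise not well above background on either side, and the heme binder HPX, with 117 at 20 h, was not at 16 h.

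Among the 16100 genes ranked at 20 h, TTC33 and FGF16 were among those that came before TTR, with differences of 3.39 and 3.300 on the log2 scale. At 66 h, 6 of 38 plasma genes detected on 5 other arrays or more (15.8%) were past the 95th percentile, beside 4.86% of all genes. Of the 21 detected on all arrays it was HP alone (0.74; 4.76%, beside 2.24% of all genes so detected), and of the 28 detected at 60, 66 and 72 h it was HP and F2 (7.14%, beside 2.62%). Markers of the primitive streak, mesoderm and trophoblast went both ways on that array. TBXT, HAND1 and EOMES, measured on all 3 late arrays, were 2.38, 2.17 and 1.83 above the mean of their neighbours, and KDR, the VEGF receptor, was lower, with 7742, 4922 and 5582 at 60, 66 and 72 h. With 1 sample per time point, a property of the sample at 20 or 66 h and a property of the time cannot be told apart.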
